A study of Mus musculus with 4 samples.

Results

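The stefin A cluster on mouse chromosome 16 was examined through 7 of its genes, Stfa1, Stfa2, Stfa3, Stfa2l1, Cstdc4, Cstdc5 and Csta2, out of 55426 genes in the deposited tables. Poly(A) RNA was sequenced from transformed haematopoietic stem and progenitor cells derived from lineage-negative mouse bone marrow. There were 2 libraries of MLL-ENL ∆YEATS cells, whose genotype is labelled as the MLL-ENL fusion with ENL residues 372 to 559, and 2 libraries of MLL-ENL cells, which carried the fusion labelled without that restriction. MLL-ENL is a leukaemia fusion that joins the chromatin regulator MLL to ENL, a component of the transcription elongation machinery, and the YEATS domain is the acetyl-lysine reader of ENL. All cells of both groups carried a fusion and were grown in the same medium with 15% stem cell serum. Each group was 1 cell line, and the design text calls its libraries technical replicates, so the spread between them may be technical and differences between the lines are not separated from differences between the fusions. The labels and design text give neither the age, sex or strain of the donor mice nor the way in which the fusion was introduced. They also do not say how reads of the fusion itself were counted, so the labels were not checked against it.

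The 7 genes were chosen by their higher expression, as neighbours, in the MLL-ENL ∆YEATS libraries. Their levels and fold changes between these 2 groups are therefore a description, with no test. Totals ran from 28177480 to 28814798 expected counts in MLL-ENL ∆YEATS libraries and from 27812855 to 28121268 in MLL-ENL libraries, and 3 counts corresponded to 0.102 to 0.112 CPM, which are counts scaled to library size. The MLL-ENL ∆YEATS libraries differed little from each other (chi-square per degree of freedom 1.99), while the MLL-ENL libraries stood further apart (89.8), and in that pair the log2 ratio of replicate 1 over replicate 2 fell with exonic length (Spearman rho -0.391 across genes, which are not independent replicates, against 0.065 in the MLL-ENL ∆YEATS pair).

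Stefins are small cystatins that stay inside the cell. They bind tightly and reversibly in the active site of papain-like cysteine proteases, chiefly the lysosomal cathepsins, and so guard the cytosol against escaped enzyme. Humans have a single stefin A gene, CSTA, known from epidermis, lymphoid tissue and neutrophils, whereas in the mouse the gene was duplicated into a tandem cluster whose transcripts are well known from maturing neutrophils. The wedge that enters the protease is formed in part by a loop with the conserved pattern QxVxG.

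In GRCm38 the 7 genes lay within 299 kb of chromosome 16, from 36156811 to 36455392, with Stfa2l1, Cstdc4, Csta2 and Stfa1 on the plus strand followed by Cstdc5, Stfa2 and Stfa3 on the minus strand. In the older GENCODE release used for positions, Cstdc4, Cstdc5 and Csta2 stand as Gm5483, BC100530 and 2010005H15Rik. The coding sequences of the 21 pairs of members were 73.4% to 98.0% identical, with a median of 79.5%, and 3 close pairs stood out. Stfa1 and Cstdc5 were 98.0% identical, Cstdc4 and Csta2 96.9%, and Stfa2l1 and Stfa2 96.5%. The stretches of 105 coding bases around the loop are shown for these 3 pairs. They bear on how far a short read from this part of the gene could tell the copies apart. They were read from GENCODE M21 transcripts, with the 5 codons of the loop in capitals.
Stfa1, coding bases 91 to 195: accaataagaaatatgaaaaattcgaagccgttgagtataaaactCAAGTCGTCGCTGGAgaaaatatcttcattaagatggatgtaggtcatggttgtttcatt
Cstdc5, coding bases 91 to 195: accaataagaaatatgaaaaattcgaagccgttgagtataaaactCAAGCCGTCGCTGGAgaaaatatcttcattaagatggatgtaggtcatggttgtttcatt
Cstdc4, coding bases 91 to 195: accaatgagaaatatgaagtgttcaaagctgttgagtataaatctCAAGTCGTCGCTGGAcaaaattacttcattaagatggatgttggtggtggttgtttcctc
Csta2, coding bases 91 to 195: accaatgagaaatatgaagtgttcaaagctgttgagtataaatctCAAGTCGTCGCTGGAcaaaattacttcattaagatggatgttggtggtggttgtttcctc
Stfa2l1, coding bases 109 to 213: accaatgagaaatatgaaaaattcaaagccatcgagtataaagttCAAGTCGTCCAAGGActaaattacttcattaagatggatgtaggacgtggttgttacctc
Stfa2, coding bases 109 to 213: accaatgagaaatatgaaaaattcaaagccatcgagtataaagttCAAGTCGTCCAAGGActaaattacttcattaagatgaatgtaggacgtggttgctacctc
In this stretch Cstdc4 and Csta2 had no difference, Stfa1 and Cstdc5 differed at 1 base, and Stfa2l1 and Stfa2 at 2 bases. Between the pairs the stretches differed more, with 15 differences between Stfa1 and Cstdc4 and 20 between Stfa1 and Stfa2. Of all stretches of 50 bases in the exons of Stfa1, 22.5% occurred unchanged in another gene, against 25.1% for Cstdc5, 24.6% for Stfa2l1, 20.4% for Csta2, 15.9% for Stfa2, 11.0% for Cstdc4 and 0% for Stfa3. At 100 bases these shares were 5.07% for Stfa1, 9.49% for Cstdc5, 5.61% for Csta2 and 2.47% for Cstdc4, and 0% for Stfa2l1, Stfa2 and Stfa3. The Cstdc4 share at 50 bases is taken over 1830 stretches, which include a retained-intron transcript of 1859 bases. Its coding transcript has only 414 bases, and 130 stretches were shared within the family. These shares may therefore understate the overlap of spliced Cstdc4 RNA with other genes. The sources used here do not state the read length. Values of single members of a close pair are thus estimates in which reads may have been split between copies, and the sum over the family does not depend on a split within it. Some shared stretches lay in genes outside the family, 102 of 790 stretches of 50 bases in Cstdc5, 71 in Cstdc4, 64 in Stfa1, 29 in Stfa2l1 and 5 in Stfa2, so the sum could still gain or lose reads to those.

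The regions around the gene starts were also alike. The genes were chosen as near-identical copies of a duplicated family, so this likeness is not independent of the choice. RefSeq start windows (GRCm38.p6, 250 bases before to 50 bases after the start) were found for all 7 members. Without Csta2, the windows were 66.7% to 90.5% identical over 15 pairs. The Csta2 window was 43.0% to 46.6% identical to the other 6. The 150 bases from 100 before the start are shown for the 3 most abundant genes and for Stfa2 and Stfa3. They are also shown for Csta2, whose window at its RefSeq start lacked the shared runs. Capitals mark runs of 8 or more bases found in every member window except that of Csta2. To be marked, a run also had to occur in the window of the related gene Csta3. Runs that only members shared, such as agaggaggag, are therefore left in lower case.
Stfa1, chr16:36277048-36277197, plus strand: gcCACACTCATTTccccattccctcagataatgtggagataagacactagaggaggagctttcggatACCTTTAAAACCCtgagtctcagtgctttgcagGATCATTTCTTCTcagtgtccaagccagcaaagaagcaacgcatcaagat
Cstdc5, chr16:36367521-36367670, minus strand: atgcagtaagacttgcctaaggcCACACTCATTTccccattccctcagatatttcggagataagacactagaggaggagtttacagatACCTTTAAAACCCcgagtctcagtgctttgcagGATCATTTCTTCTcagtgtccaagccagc
Cstdc4, chr16:36184112-36184261, plus strand: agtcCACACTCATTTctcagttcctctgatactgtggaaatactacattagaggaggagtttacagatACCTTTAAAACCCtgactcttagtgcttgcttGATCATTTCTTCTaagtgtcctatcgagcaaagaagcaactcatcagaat
Stfa2, chr16:36408314-36408463, minus strand: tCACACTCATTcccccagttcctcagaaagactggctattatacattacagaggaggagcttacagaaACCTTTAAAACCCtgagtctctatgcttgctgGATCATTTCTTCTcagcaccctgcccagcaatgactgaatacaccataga
Stfa3, chr16:36455343-36455492, minus strand: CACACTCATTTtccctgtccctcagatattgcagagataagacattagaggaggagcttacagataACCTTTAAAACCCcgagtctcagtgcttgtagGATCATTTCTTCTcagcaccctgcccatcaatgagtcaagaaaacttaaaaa
Csta2, chr16:36221462-36221611, plus strand: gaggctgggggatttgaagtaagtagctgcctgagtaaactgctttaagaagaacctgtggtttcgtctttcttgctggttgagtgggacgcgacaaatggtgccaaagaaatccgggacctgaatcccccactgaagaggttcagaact
The runs ACCTTTAAAACCC and GATCATTTCTTCT, of 13 bases each, occurred in 9 of 32851 RefSeq start windows (0.0274%), and all 9 lay on chromosome 16. These were the windows of 6 members, of Csta3, and of Cstdc3 and Gm7260, which the annotation lists as pseudogenes. The shorter run CACACTCATT occurred in 26 windows (0.0791%). The run ACTCATTT, which overlaps it in some windows, occurred in 202 windows (0.615%).

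**Figure D1:**
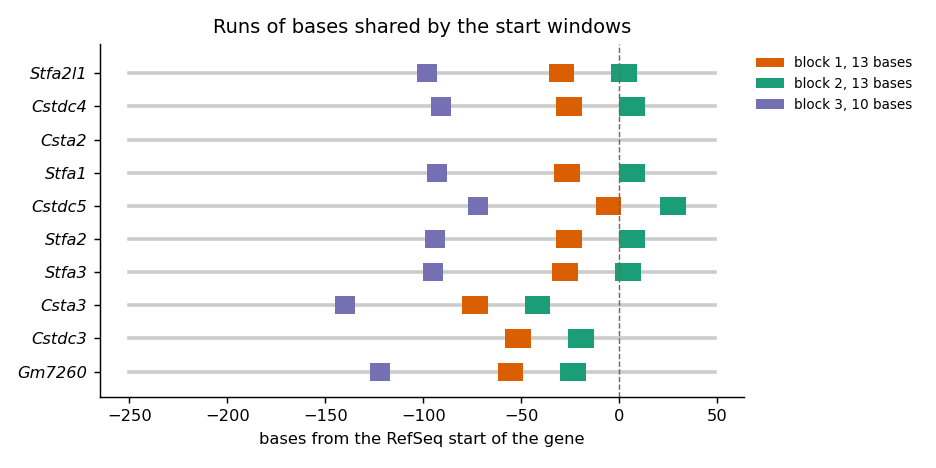
Position of the 3 longest runs shared by the start windows of Csta3 and of every member except Csta2, in bases from the RefSeq start (0). Rows are the 7 members in chromosome order, then Csta3, Cstdc3 and Gm7260. Orange and green bars are the runs of 13 bases and purple bars the run of 10 bases. The green run begins within 4 bases of the start in Stfa2l1, Cstdc4, Stfa1, Stfa2 and Stfa3 and 21 bases after it in Cstdc5, and the Csta2 window holds none.

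Short motifs were searched on both strands of the windows of the 7 members and Csta3. The C/EBP pattern TTGCNNAA was in 3 of the 8 windows (Stfa1, Cstdc5 and Csta3) and in 10.8% of all windows. The AP-1 pattern TGANTCA was only in the Stfa3 window among the 8 (7.81% of all windows), and CCAAT was in 6 of the 8 (37.4%). The TATA pattern TATAAA (13.6% of all windows), the PU.1 pattern GAGGAAGT (3.20%), the MEIS pattern TGACAG (19.2%) and the MYB pattern AACNGNC (32.8%) were in none of the 8. Only the letters printed were searched, so variants of these patterns, such as other TATA-like sequences, were not covered. The E-box CANNTG was in 7 of the 8 (72.3%), as was GGAA (96.0%), which also lies inside the PU.1 pattern.

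Another shared feature lay at the far end of the genes. Stfa2l1, Cstdc4, Csta2, Stfa1, Cstdc5 and Stfa2 each had an annotated small nuclear RNA copy of 104 to 107 bases on the opposite strand, starting 59 to 106 bases beyond the 3′ end. The nearest such copy was 11790 bases beyond Stfa3. None of these copies had a count in any library, in a method that selects poly(A) RNA.

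Summed over the 7 genes, the family had 7044 and 7419 counts in MLL-ENL ∆YEATS libraries, against 916 and 807 counts in MLL-ENL libraries. This was 240 and 259 CPM in MLL-ENL ∆YEATS cells and 34.2 and 28.7 CPM in MLL-ENL cells, or 249 ± 13.4 CPM and 31.5 ± 3.89 CPM (SD, n = 2 each), a ratio of 7.93 (log2 ratio 2.99). Both MLL-ENL ∆YEATS libraries were above both MLL-ENL libraries by many times the gap within either pair. Each pair comes from 1 cell line, so that gap does not measure variation between lines, and the genes were chosen for this difference. Among 13245 genes that passed the count filter, 122 (0.921%) had a log2 ratio at least as high as that of the sum. These 122 include the members Stfa1, Csta2 and Stfa3. Any gene with no count in either MLL-ENL library has no finite ratio and is not among the 122. The difference cannot be divided between more cells that transcribe the cluster and more RNA per cell, which in bulk libraries cannot be told apart.

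All 7 members were higher in both MLL-ENL ∆YEATS libraries than in both MLL-ENL libraries, a separation also seen in 32.1% of all tested genes. All 7 passed the count filter, but Csta2, Stfa2 and Stfa3 did so through the MLL-ENL ∆YEATS libraries only, so that a difference was built into their passing. Stfa1, Cstdc5 and Cstdc4 carried nearly all of the signal, at 97.0% and 97.1% of the family counts in MLL-ENL ∆YEATS libraries and 97.9% and 97.1% in MLL-ENL libraries.

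**Figure D2:**
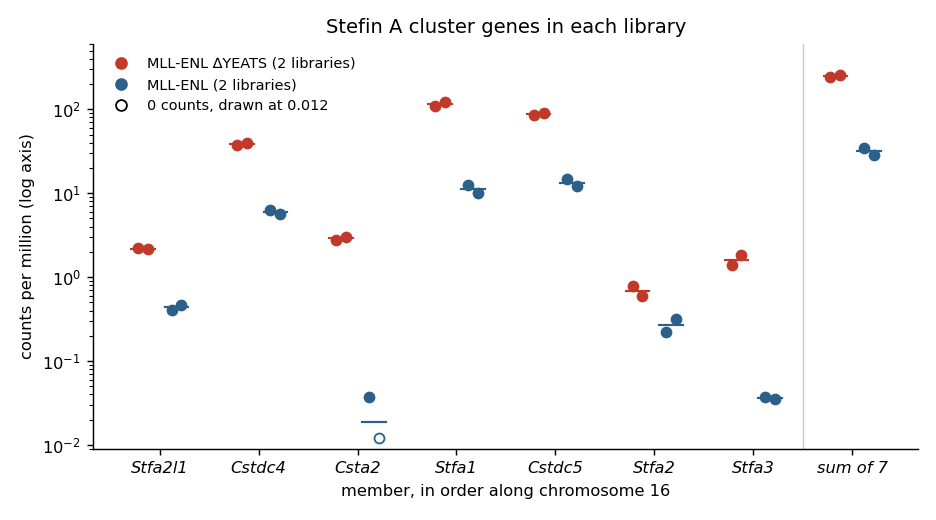
CPM of each member and of their sum in each library, on a log axis, with a bar at the mean of each group (n = 2). MLL-ENL ∆YEATS libraries are red and MLL-ENL libraries blue, and an open point marks 0 counts. The red points lie above the blue points for every member, from Stfa2 (0.783 and 0.593 against 0.224 and 0.320 CPM) to Stfa1 (110 and 122 against 12.6 and 10.1 CPM).

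Stfa1, a mouse stefin A gene (chr16:36276951-36285373, plus strand), had 3215 and 3497 counts in MLL-ENL ∆YEATS libraries and 338 and 283 counts in MLL-ENL libraries. In CPM this was 110 and 122 against 12.6 and 10.1, a 10.2-fold difference (log2 fold change 3.35). The libraries of the 2 groups were far from overlapping. Per length, Stfa1 stood at 341.7 and 377.36 FPKM in MLL-ENL ∆YEATS cells, against 35.68 and 31.69 FPKM in MLL-ENL cells. By mean FPKM it ranked 261 of 13245 tested genes in MLL-ENL ∆YEATS cells and 3293 in MLL-ENL cells.

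Cstdc5, a stefin A-like copy with the coding sequence closest to Stfa1 (chr16:36359382-36367748, minus strand), had 2510 and 2560 counts in MLL-ENL ∆YEATS libraries and 390 and 344 counts in MLL-ENL libraries (85.5 and 89.3 CPM against 14.6 and 12.2 CPM, log2 fold change 2.71). Its libraries also fell into 2 separate pairs, with the MLL-ENL pair the wider in proportion. The antisense transcript Gm15845, which overlaps part of Cstdc5, had 1 and 4 counts in MLL-ENL ∆YEATS libraries and 0 in both MLL-ENL libraries. Without a stated strand setting, its reads from the overlap cannot be told apart from those of Cstdc5.

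Cstdc4 (chr16:36184212-36188111, plus strand) had 1108 and 1145 counts in MLL-ENL ∆YEATS libraries and 169 and 157 counts in MLL-ENL libraries, which was 37.7 and 40.0 CPM against 6.31 and 5.58 CPM (log2 fold change 2.71). Its count was the lowest of the 3 abundant genes, but per length it was close to Cstdc5, at 246.45 and 260.86 FPKM against 265.14 and 277.68 FPKM in MLL-ENL ∆YEATS libraries, and at 38.45 and 36.48 FPKM against 41.3 and 38.18 FPKM in MLL-ENL libraries. In MLL-ENL cells the mean FPKM of Cstdc5, Cstdc4 and Stfa1 was 39.7, 37.5 and 33.7, where the libraries of Cstdc5 and Cstdc4 overlapped and those of Stfa1 lay just below. In MLL-ENL ∆YEATS cells Stfa1 led at a mean of 360 FPKM, with Cstdc5 at 271 and Cstdc4 at 254 FPKM, and the libraries of the 3 genes did not overlap.

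Stfa1 was a larger part of the family sum in MLL-ENL ∆YEATS cells. Stfa1 made up 45.6% (Wilson 95% interval 44.5 to 46.8) and 47.1% (46.0 to 48.3) of the family counts in MLL-ENL ∆YEATS libraries, against 36.9% (33.8 to 40.1) and 35.1% (31.9 to 38.4) in MLL-ENL libraries. Cstdc5 made up 35.6% and 34.5% in MLL-ENL ∆YEATS libraries and 42.6% in both MLL-ENL libraries. The Stfa1 count was 1.28 and 1.37 times that of Cstdc5 in MLL-ENL ∆YEATS libraries, against 0.867 and 0.823 times in MLL-ENL libraries, so the more abundant copy of this close pair differed between the groups. These intervals cover counting error only, and how a split of shared reads between the copies bears on the shift was not tested.

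**Figure D3:**
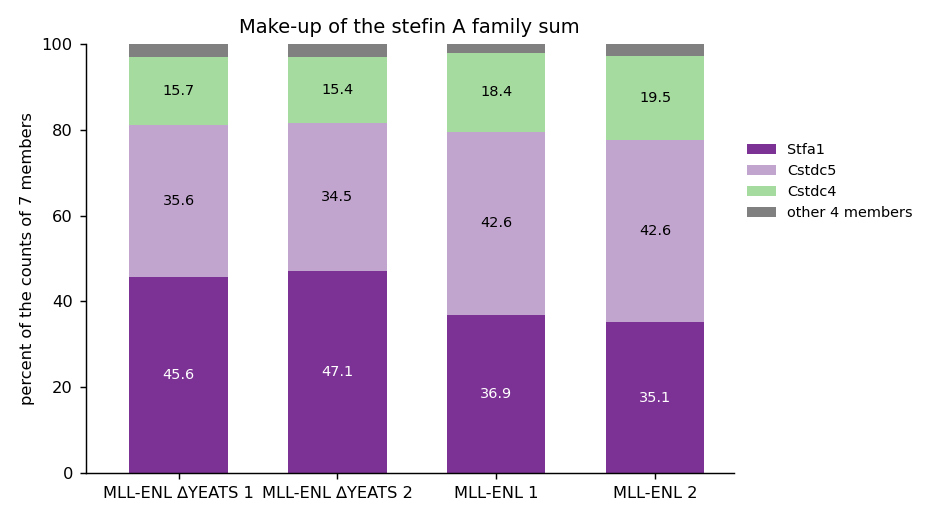
Percent of the family counts that came from Stfa1, Cstdc5, Cstdc4 and the other 4 members in each library, the MLL-ENL ∆YEATS libraries at left and the MLL-ENL libraries at right. Stfa1 is the largest part at 45.6% and 47.1% in MLL-ENL ∆YEATS libraries, and Cstdc5 at 42.6% in both MLL-ENL libraries.

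The other 4 members were scarce. Per length they followed in the order Csta2, Stfa2l1, Stfa3 and Stfa2 in MLL-ENL ∆YEATS cells, at means of 28.8, 15.8, 12.1 and 3.74 FPKM, with no overlap between the libraries of neighbours. In MLL-ENL cells Stfa2l1 and Stfa2 stood at means of 3.05 and 1.44 FPKM. Stfa3 had 0.25 and 0.28 FPKM there and Csta2 had 0.1 and 0 FPKM, each from at most 1 count in a library.

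Stfa2l1 (chr16:36156811-36161953, plus strand) had 65 and 62 counts in MLL-ENL ∆YEATS libraries and 11 and 13 counts in MLL-ENL libraries (2.21 and 2.16 CPM against 0.411 and 0.462 CPM), a log2 fold change of 2.31. Its close copy Stfa2 (chr16:36403992-36408457, minus strand) had 23 and 17 counts in MLL-ENL ∆YEATS libraries and 6 and 9 counts in MLL-ENL libraries. That was the smallest difference in the cluster, with a count ratio of 2.52 and a 95% interval of 1.36 to 4.92. The interval covers counting error only. It is no test, since Stfa2 was chosen on this contrast and passed the filter only through the MLL-ENL ∆YEATS libraries. Stfa2 reached 35.4% and 27.4% of the Stfa2l1 count in MLL-ENL ∆YEATS libraries, against 54.5% and 69.2% in MLL-ENL libraries.

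Stfa3 (chr16:36450537-36455392, minus strand), the member whose exons shared no stretch of 50 bases with another gene, had 41 and 52 counts in MLL-ENL ∆YEATS libraries and 1 count in each MLL-ENL library. Its ratio of 44.0 therefore has a wide counting interval, 11.8 to 369. Csta2 (chr16:36221468-36257444, plus strand) had 82 and 86 counts in MLL-ENL ∆YEATS libraries and 1 and 0 counts in MLL-ENL libraries, a ratio of 159 with an interval of 28.1 to 6316. Both genes stood near 0 in MLL-ENL cells, so their fold changes are poorly bounded from above.

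The counts of Csta2 and of its close copy also stood in different proportions in the libraries of the 2 groups. Its count was 7.40% and 7.51% of that of Cstdc4 in MLL-ENL ∆YEATS libraries, against 0.592% and 0% in MLL-ENL libraries. At the ratio of the MLL-ENL ∆YEATS libraries, 24.3 Csta2 counts would stand beside the Cstdc4 counts of the MLL-ENL libraries, where 1 was observed. That figure restates the same counts and is a description with no test. Csta2 was chosen on this contrast and passed the filter only through the MLL-ENL ∆YEATS libraries. How reads were split between Csta2 and Cstdc4 is also not known. Csta2 was also the member whose start window lacked the shared runs, and its RefSeq start at position 36221562 is 1 of 3 annotated in GENCODE (36221468, 36221562 and 36253046). Windows at the other starts were not searched. Which start was used cannot be read from gene counts.

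Around and between the members the region was nearly silent. Of 33 annotated genes from Csta1 to Gm49653, which flank the 7 members, 12 had any count. Besides the 7 members these were Csta3, with 6 and 8 counts in MLL-ENL ∆YEATS libraries and 1 and 0 in MLL-ENL libraries, Cstdc6, with 0 in both MLL-ENL ∆YEATS libraries and 0 and 1 in MLL-ENL libraries, the pseudogene Gm6815, with 11 and 8 against 1 and 4 counts, and Gm15845 and Gm10913 with at most 4 counts in a library. Csta3 and Cstdc6 were below the count filter. Csta1 and Cstdc3 in the same region, and the stefin-like Cstdc1, Cstdc2 and Cstdc7 on other chromosomes, were at 0 in all 4 libraries, which allows up to 0.112 CPM in the library with the highest floor. Cstdc3 and Gm7260, at 0 throughout, also carried the runs of 13 bases in their start windows, so those runs were present in genes with no detected transcript.

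The neighbouring genes answered a different question, whether the change extended along the chromosome beyond the cluster. Among all tested genes 932 were higher and 1303 lower in MLL-ENL ∆YEATS cells at an adjusted p under 0.05 (16.9% called, 7.04% called higher; edgeR quasi-likelihood test). Of the 10 nearest protein-coding genes on each side, 14 were tested, and 3 rose, 3 fell and 8 did not pass the test. The 6 called were 42.9% of those tested, where 16.9% of all tested genes were called. The median log2 fold change of the 14 was 0.02, against -0.01 over all tested genes.

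On the side of Stfa2l1, the nearest gene Ccdc58, which encodes a mitochondrial protein, lay 64.7 kb away and rose to 26.5 CPM in MLL-ENL ∆YEATS cells, against 18.3 CPM in MLL-ENL cells (log2 fold change 0.53, edgeR adjusted p = 0.0430). That call was lost in 7 of 16 alternative fits. Fam162a and Wdr5b, next in order, had log2 fold changes of 0.16 and -0.32 and did not pass the test (edgeR adjusted p = 0.513 and 0.227). Kpna1, a nuclear import receptor, rose (150 against 82.0 CPM, log2 fold change 0.88, edgeR adjusted p = 0.00771), although the call was lost without MLL-ENL ∆YEATS replicate 1 (log2 fold change 0.86, edgeR adjusted p = 0.0628) and with limma without a filter (adjusted p = 0.117). Hspbap1, which encodes a heat-shock-associated protein, also rose (16.2 against 5.96 CPM, log2 fold change 1.44, edgeR adjusted p = 0.00471), while the ADP-ribosyltransferase gene Parp14 between them fell (0.896 against 4.78 CPM, log2 fold change -2.41, edgeR adjusted p = 0.00235).

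On the side of Stfa3, the nearest gene was Casr, the calcium-sensing receptor, 38.3 kb away and at 0 in all 4 libraries. Ildr1 was also at 0, and Cd86, Slc15a2 and Eaf2 were below the count filter. The nearest tested genes began 373 kb from the cluster. Iqcb1 and Hcls1 did not pass the test (log2 fold changes 0.50 and -0.69, edgeR adjusted p = 0.111 and 0.113), while the Golgi protein gene Golgb1 and the F-box gene Fbxo40 fell (-0.87 and -1.11, edgeR adjusted p = 0.0135 and 0.0136). Both calls were lost without either MLL-ENL ∆YEATS replicate.

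**Figure D4:**
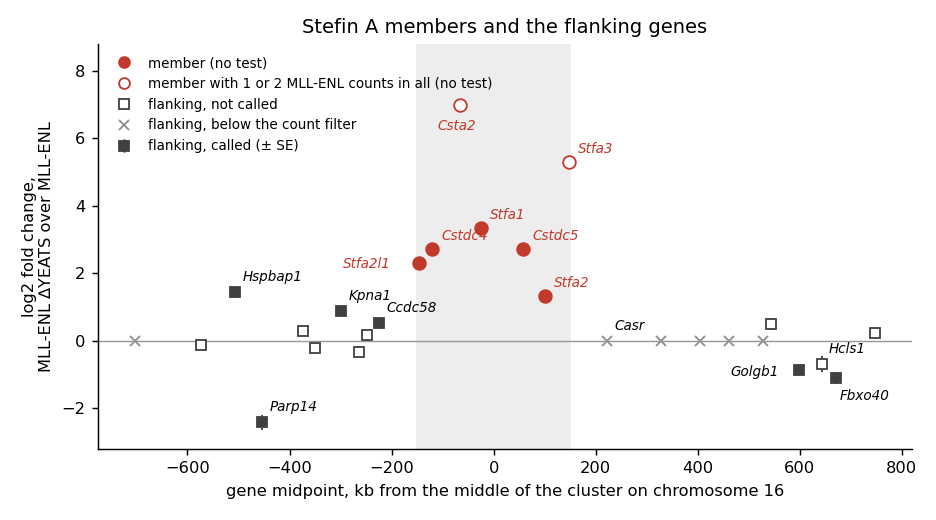
Log2 fold change of MLL-ENL ∆YEATS over MLL-ENL against the distance of the gene midpoint from the middle of the cluster in kb, for the 7 members (red circles, no test) and the 10 nearest protein-coding genes on each side (squares with SE, filled where called; crosses at 0 mark genes below the count filter). The shaded span is the cluster; members lie at 1.32 and above, and flanking genes between -2.41 and 1.44. The open circles, Csta2 and Stfa3, are fitted values that depend on 1 or 2 counts in MLL-ENL libraries.

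The cysteine cathepsins and their relatives, a list that includes proteases that stefins inhibit, moved in both directions. Of 13 listed cysteine cathepsins and relatives, 9 were tested, and 2 rose, 4 fell and 3 did not pass the test, with a median log2 fold change of -0.16 against -0.01 over all tested genes. The 6 called were 66.7% of those tested, where 16.9% of all tested genes were called. Ctsb, a major lysosomal cathepsin, stood at 208 CPM in MLL-ENL ∆YEATS cells and 232 CPM in MLL-ENL cells (log2 fold change -0.16, edgeR adjusted p = 0.400), and Ctsz, cathepsin Z, at 628 and 660 CPM (-0.07, adjusted p = 0.814). Ctss, cathepsin S of antigen processing, was at 2.84 and 2.80 CPM (0.02, edgeR adjusted p = 0.952).

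Ctsc, cathepsin C, which activates the serine proteases of neutrophil granules, fell to 32.3 and 33.7 CPM in MLL-ENL ∆YEATS libraries, against 65.4 and 86.2 CPM in MLL-ENL libraries (log2 fold change -1.20 ± 0.16 SE, edgeR adjusted p = 0.00823, lost in 2 of 16 alternative fits, both limma on FPKM, with adjusted p up to 0.157). Its libraries did not overlap, with the MLL-ENL pair the wider. Tinagl1, a secreted relative of the cathepsins without protease activity, fell further, to 2.39 CPM against 17.8 CPM (-2.89, edgeR adjusted p = 0.000681). Ctsf had 0 and 2 counts in MLL-ENL ∆YEATS libraries and 17 and 19 in MLL-ENL libraries, an MLL-ENL over MLL-ENL ∆YEATS ratio of 19.0 with a counting interval of 4.90 to 163 (edgeR adjusted p = 0.0194, lost in 3 of 15 alternative fits, all limma on FPKM, with adjusted p up to 0.506). Ctsh rose, at 1.41 CPM against 0.456 CPM (log2 fold change 1.62, edgeR adjusted p = 0.0163, lost in 2 of 15 alternative fits, both limma on FPKM, with adjusted p up to 0.126).

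Ctsl, cathepsin L, a classical target of stefin A, was at 74.9 and 71.5 CPM in MLL-ENL ∆YEATS libraries and 46.6 and 55.0 CPM in MLL-ENL libraries (log2 fold change 0.53, edgeR adjusted p = 0.0478). The call sat at the threshold and was lost in 8 of 16 alternative fits. Ctso, at 3.46 against 6.82 CPM (log2 fold change -0.98, edgeR adjusted p = 0.0478), lost its call in 7.

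No other cystatin was called higher. Of 16 genes found, 11 were at 0 in all libraries and 3 were tested, of which 1 fell and 2 did not pass the test, where 16.9% of all tested genes were called. Cst7, cystatin F, a leukocyte cystatin that is targeted to endosomes and granules and inhibits cathepsin C, fell to 40.5 and 45.0 CPM in MLL-ENL ∆YEATS libraries, against 114 and 93.1 CPM in MLL-ENL libraries (log2 fold change -1.28 ± 0.15 SE, edgeR adjusted p = 0.00471). Cst7 and its target Ctsc were thus both lower, in libraries in which the stefin A genes were higher. Cstb, stefin B, the ubiquitous cytosolic relative encoded elsewhere in the genome, stood at 31.6 CPM in MLL-ENL ∆YEATS cells and 25.8 CPM in MLL-ENL cells (0.29, edgeR adjusted p = 0.156). Cst3, the secreted cystatin C, was at 170 and 243 CPM (-0.52, edgeR adjusted p = 0.117).

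Since the cluster is known from maturing neutrophils, a list of 20 late neutrophil genes that holds no stefin was set beside it. Of 17 tested, 9 rose, 2 fell and 6 did not pass the test, with a median log2 fold change of 1.55 against -0.01 over all tested genes. The 11 called were 64.7% of those tested, against 16.9% of all tested genes called and 7.04% called higher. The calprotectin subunits S100a8 and S100a9 rose to 134 and 198 CPM in MLL-ENL ∆YEATS cells, against 30.0 and 40.4 CPM in MLL-ENL cells (log2 fold changes 2.16 and 2.29, edgeR adjusted p = 0.00198 and 0.000457). Chil3, a chitinase-like protein of myeloid cells, rose to 62.1 against 15.5 CPM (2.00, edgeR adjusted p = 0.000650). Anxa1, annexin A1, and Padi4, the histone-citrullinating enzyme, also rose (2.22 and 1.70, edgeR adjusted p = 0.000609 and 0.000986). So did Lcn2, the iron-siderophore-binding lipocalin (1.55, edgeR adjusted p = 0.00158). Mmp9, gelatinase B of neutrophil granules, rose to 5.07 CPM in MLL-ENL ∆YEATS cells, against 0.871 CPM in MLL-ENL cells (2.53, edgeR adjusted p = 0.00234).

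The list moved in both directions. The granule protein gene Ngp, named after its values were seen, fell to 20.9 CPM in MLL-ENL ∆YEATS cells, against 54.0 CPM in MLL-ENL cells (log2 fold change -1.37, edgeR adjusted p = 0.00361), and Cd177, a neutrophil surface protein, to 32.7 against 90.2 CPM (-1.46, edgeR adjusted p = 0.00269). Camp and Ltf, which encode secondary granule proteins, and Ly6g, the usual surface marker of mouse neutrophils, did not pass the test (edgeR adjusted p = 0.0924, 0.590 and 0.0978), at log2 fold changes of -0.50, -0.27 and -0.86. Retnlg had 6 counts in each MLL-ENL ∆YEATS library and 2 and 0 in MLL-ENL libraries and was below the filter. The summed level of the list was 722 and 736 CPM in MLL-ENL ∆YEATS libraries and 433 and 362 CPM in MLL-ENL libraries. Its part in the stefin A difference was not tested.

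**Figure D5:**
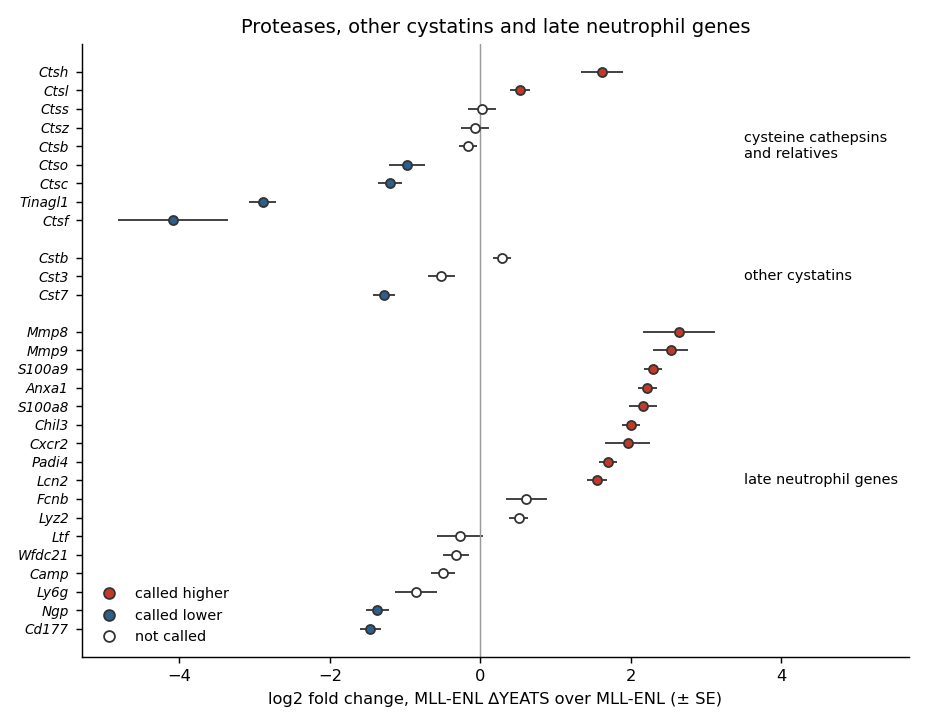
Log2 fold change of MLL-ENL ∆YEATS over MLL-ENL with SE for the tested cathepsins and relatives, the other cystatins and the late neutrophil genes. Filled points were called higher (red) or lower (blue) by edgeR at an adjusted p under 0.05 and open points were not called; Ctsc at -1.20 and Cst7 at -1.28 lie left of 0, and 9 late neutrophil genes lie at 1.55 or above.

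Stefin A is also an epidermal protein, and keratinocyte markers were checked for that reason. Of 14 listed genes 10 were at 0 in all libraries, among them Krt5, Krt14, Krt1, Lor and Flg, which define keratinocytes. The list summed to 19.9 and 20.5 CPM in MLL-ENL ∆YEATS libraries and 17.2 and 17.6 CPM in MLL-ENL libraries, nearly all of it from Tgm1 and Ivl, neither of which passed the test. Krt10 fell, at 0.190 CPM in MLL-ENL ∆YEATS cells and 0.854 CPM in MLL-ENL cells (edgeR adjusted p = 0.0224). Of 6 tested blood and progenitor markers 1 rose (Spi1), 2 fell (Kit and Cd48) and 3 did not pass the test, so 3 of 6 were called where 16.9% of all tested genes were. Kit, the stem cell factor receptor, fell to 3.27 CPM in MLL-ENL ∆YEATS cells, against 58.7 CPM in MLL-ENL cells (log2 fold change -4.17, edgeR adjusted p = 0.000681). Cd48 had 1 and 2 counts in MLL-ENL ∆YEATS libraries and 94 and 139 counts in MLL-ENL libraries (edgeR adjusted p = 0.00111), an MLL-ENL over MLL-ENL ∆YEATS count ratio of 82.1 with a counting interval of 27.7 to 401. Spi1, the gene of the myeloid factor PU.1, rose to 242 CPM against 176 CPM (log2 fold change 0.46, edgeR adjusted p = 0.0404). The leukocyte gene Ptprc was at 271 and 276 CPM in MLL-ENL ∆YEATS libraries and 193 and 264 CPM in MLL-ENL libraries.

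Among 9179 genes outside the cluster with a mean of at least 5 CPM, those whose centred log2 CPM lay nearest to that of the family sum over the 4 libraries were Fam129b, Capg, Etv5, Slc12a7, Cdkn1c, Etv4, Lhfpl2 and Hpse2, at Euclidean distances of 0.24 to 0.45. They were picked on the same contrast, and with 4 libraries the measure mostly finds genes of a like fold change, so their values are a description. Capg, an actin-capping protein, had 68.2 and 65.9 CPM in MLL-ENL ∆YEATS libraries and 10.7 and 7.40 CPM in MLL-ENL libraries. The related ETS transcription factor genes Etv5 and Etv4 had 38.7 and 15.5 CPM in MLL-ENL ∆YEATS cells, against 5.61 and 1.48 CPM in MLL-ENL cells. Etv5 is also on chromosome 16, at 22381309 to 22439719, far outside the cluster. Among the members, Cstdc5, Cstdc4 and Stfa1 lay at 0.29, 0.30 and 0.36 from the sum that they dominate, and Stfa3, Stfa2l1, Csta2 and Stfa2 at 0.69, 0.94, 1.69 and 1.98.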

How the data were processed

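Poly(A) RNA-seq of 2 MLL-ENL ∆YEATS and 2 MLL-ENL libraries was used. The authors deposited expected counts per gene, estimated with RSEM 1.3.3 after cutadapt 2.3, FastQC 0.11.8 and STAR 2.7.8a on GRCm38, per the submitters' processing notes. The authors also deposited FPKM, scaled by gene length and library size. Read length, strand and the handling of reads that match several genes are not stated in the labels or headers, and deposited counts were whole numbers (totals 27812855 to 28814798 per library). Genes passing edgeR's filterByExpr (13245 of 55426) were scaled by TMM and tested with the quasi-likelihood F-test (glmQLFit, glmQLFTest; edgeR 4.0.16, R 4.3.3) over all genes with Benjamini-Hochberg adjustment, called at an adjusted p under 0.05. CPM used TMM-scaled totals. Count ratios have exact binomial 95% intervals, which cover counting error only. Positions, exons and coding sequences came from GENCODE M21, start windows from RefSeq (GRCm38.p6). Motif searches and identities used these sequences. Alternatives were other scalings and filters, left-out replicates, a gene-length correction, limma 3.58.1 on log2(FPKM + 1) or log2(FPKM + 0.1), and DESeq2 1.42.0. Named genes were every member and family row, up to 8 called genes per list by smallest p with Ctsb, Ctsc, Ctsl, Ctss, Cstb, Cst3 and Cst7 in any case, the 3 nearest tested and all called flanking genes, and the 8 genes most like the sum. Other genes were named after their values were seen. Members and lists were chosen with earlier results of these data known.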

Additional observations from a re-analysis of the deposited data

How the results depend on the processing

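The log2 ratio of the family sum was 2.99 and stayed above 0 in 23 alternatives, at 2.73 without Stfa1 in the sum and 3.17 without Cstdc5 in the sum, with the rest within the spread between replicates (0.14). Every member stayed above 0 in its 14 or 15 alternatives. Its lowest value was 0.96, for Stfa2 with limma on log2(FPKM + 1), and its highest 9.38, for Csta2 without MLL-ENL replicate 1. Over all genes 2235 were called. There were 1350 at a filter of 5 CPM in 2 libraries, and 1466 and 674 with limma on log2(FPKM + 1) with and without the count filter. Leaving out 1 library gave 1434 to 9088, where 7577 and 9088 came without MLL-ENL replicate 1 and 2 and 1441 and 1434 without MLL-ENL ∆YEATS replicate 1 and 2. In these fits the lone library is taken to vary like the other pair. The number of cathepsins and relatives called was 6, against 2 at the 5 CPM filter and 2, 2 and 1 with limma on log2(FPKM + 1), on log2(FPKM + 0.1) and without a filter. The number of other cystatins called was 1, against 3 at most with a library left out (3 without either MLL-ENL replicate, 1 at least). Of the flanking genes 6 were called, 2 to 11 with a library left out (11 without either MLL-ENL replicate, 2 and 3 without MLL-ENL ∆YEATS replicate 1 and 2), 3 and 3 with limma at pseudocounts 1 and 0.1, and 0 with limma without a filter, where 7 had an unadjusted p under 0.05 and edgeR and DESeq2 called 6 and 7. Limma without a filter also ended the calls of Parp14, Hspbap1, Mmp9 and Cxcr2 (adjusted p = 0.0582, 0.0656, 0.0584 and 0.0711) and, as with the count filter, that of Mmp8. The log2 fold change of Ctsz was -0.07 and turned to 0.19 without MLL-ENL replicate 1, with -0.29 without MLL-ENL replicate 2. Replicate numbers did not pair the libraries (correlation of deviations -0.0677). With the number as a replicate block 3133 genes and 2 other cystatins were called. The cause of these differences was not tested. Members with few counts in MLL-ENL libraries are limited by depth.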
